A study of Mus musculus with 12 samples.

Results

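The 9 genes described here belong to transforming growth factor beta (TGF-beta) signalling and to the fibrogenic response that it drives in liver. They are the ligand gene Tgfb1, the receptor genes Tgfbr1 and Tgfbr2, the signal transducers Smad2, Smad3, Smad4 and Smad7, and the fibrogenic genes Timp1 and Acta2. Every probe set annotated to exactly 1 of these genes was taken, which gave 19 of the 28898 probe sets with a single gene. The probe sets were not picked by their levels, but the genes were chosen with earlier results of these data known. The livers came from male mice in 4 groups of 3 extracts each, from 8 mice per group: Pml knockout (KO) on a high-fat diet, wild type (WT) on a high-fat diet, KO on a low-fat diet and WT on a low-fat diet. The high-fat diet drew 60% of its calories from fat and the low-fat diet 10%, and each was fed for 20 weeks. Food was withdrawn from all mice 8 h ahead of the dissection. The age, the strain and the way the Pml allele was made are not given in the sources used here. PPAR signalling and fatty acid oxidation are the subject in the title of the series, and TGF-beta genes are examined here in the same contrasts of genotype and diet.

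TGF-beta1 is secreted in a latent form, and the active ligand binds the type II receptor (Tgfbr2), which recruits and phosphorylates the type I receptor (Tgfbr1). The type I receptor phosphorylates Smad2 and Smad3, which join the common partner Smad4 and enter the nucleus, while Smad7 is induced by the pathway and blocks the receptor. In injured liver the pathway drives stellate cells to become contractile, matrix-producing myofibroblasts. Acta2 encodes the smooth muscle actin of these cells and of vessel walls, and Timp1 encodes an inhibitor of matrix metalloproteinases. A cytoplasmic form of PML has been described in mouse fibroblasts as a partner of the TGF-beta receptors and their Smads.

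Promoter windows from the RefSeq table (build GRCm38.p6, 250 bases before to 50 bases after the gene start) were examined for 6 of the 9 genes. Smad2, Smad4 and Smad7 were left out of this step, so nothing is said here about their windows. The windows of Smad3, whose level differed most clearly between the diets, and of Acta2, whose level stood apart in 1 liver, are printed to show the elements near their starts. Both genes lie on the minus strand, and both sequences read 5′ to 3′ on that strand. In the Smad3 window at chr9:63757945-63758244 the capitals mark the 2 GC boxes (GGGCGG, searched on both strands), the letters bound by the Sp family of factors. In the Acta2 window at chr19:34255324-34255623 the capitals mark the 2 CArG-like boxes, the element bound by serum response factor, searched with up to 1 base other than A or T in the core.
Smad3: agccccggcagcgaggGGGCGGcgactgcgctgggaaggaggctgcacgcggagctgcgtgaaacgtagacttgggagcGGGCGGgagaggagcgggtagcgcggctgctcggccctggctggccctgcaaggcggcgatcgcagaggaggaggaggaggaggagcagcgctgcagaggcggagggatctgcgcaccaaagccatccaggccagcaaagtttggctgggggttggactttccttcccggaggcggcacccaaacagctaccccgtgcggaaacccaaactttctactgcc
Acta2: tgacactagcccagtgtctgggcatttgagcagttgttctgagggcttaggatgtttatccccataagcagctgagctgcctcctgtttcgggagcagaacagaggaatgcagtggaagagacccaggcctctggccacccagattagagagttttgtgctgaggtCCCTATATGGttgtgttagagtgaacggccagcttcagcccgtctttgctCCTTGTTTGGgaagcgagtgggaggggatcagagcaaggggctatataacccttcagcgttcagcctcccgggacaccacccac
A GC box was present in 35.7% of all 32851 windows of this length and a CArG-like box in 9.98%, against 1.63% for the CArG box with no mismatch. The CAGAC letters of the Smad box, searched on both strands, were in 49.6% of windows. The Acta2 window held 1 Smad box, in the part before the capitals, and the Smad3 window held 0. These matches describe letters and do not show binding.

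The values are log2 signals from 12 arrays, 1 per extract, with 3 arrays a group, and the number of arrays limits the precision. The labels do not state outright that each extract came from its own mouse, so the p-values measure the spread between extracts. The brighter Pml probe set (1448757_PM_at) read 3.04 to 3.82 in KO livers and 4.92 to 5.40 in WT livers, with no overlap. Pearson's r between arrays lay between 0.986 and 0.995 across probe sets, which are not independent of each other. The actin 3′ minus 5′ signal, a sign of RNA quality, lay between 1.26 and 1.85. All 10 hepatocyte markers lay above the dim limit, the 40th percentile of mean signal at 3.82, and averaged 12.3 to 12.6 in every array. The 14 macrophage and Kupffer cell markers, of which 13 lay above that limit and Timd4 under it, averaged 4.93 in KO low-fat replicate 2 and 5.53 in KO high-fat replicate 3, against 6.01 to 6.87 in the other 10 arrays. These 2 arrays stood apart in macrophage markers, and the calls below are also given without them. Whole liver was measured, so fewer cells of a type and less RNA per cell cannot be told apart.

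Of the 19 member probe sets, 13 lay above the dim limit and 6 under it, and each of the 9 genes had at least 1 above it. No difference between genotypes passed at an adjusted p of 0.05 (limma, Benjamini-Hochberg over all 28898 probe sets). Differences between diets passed for both of the following genes: Smad3 was lower on the high-fat diet averaged over genotypes, and Smad4 was lower on the high-fat diet in KO livers. Averaged over genotypes, 1 of 19 member probe sets passed, against 1.5% of all probe sets. In KO livers 1 of 19 passed, against 0.789% of all probe sets, and in WT livers 0 of 19 passed, against 0.0865%. For KO minus WT 0 of 19 passed on the high-fat diet, on the low-fat diet and averaged over diets, against 0.00346% of all probe sets in each, which was Pml alone. With so few members and so low a background, these counts concern single probe sets and not the group of genes.

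**Figure D1:**
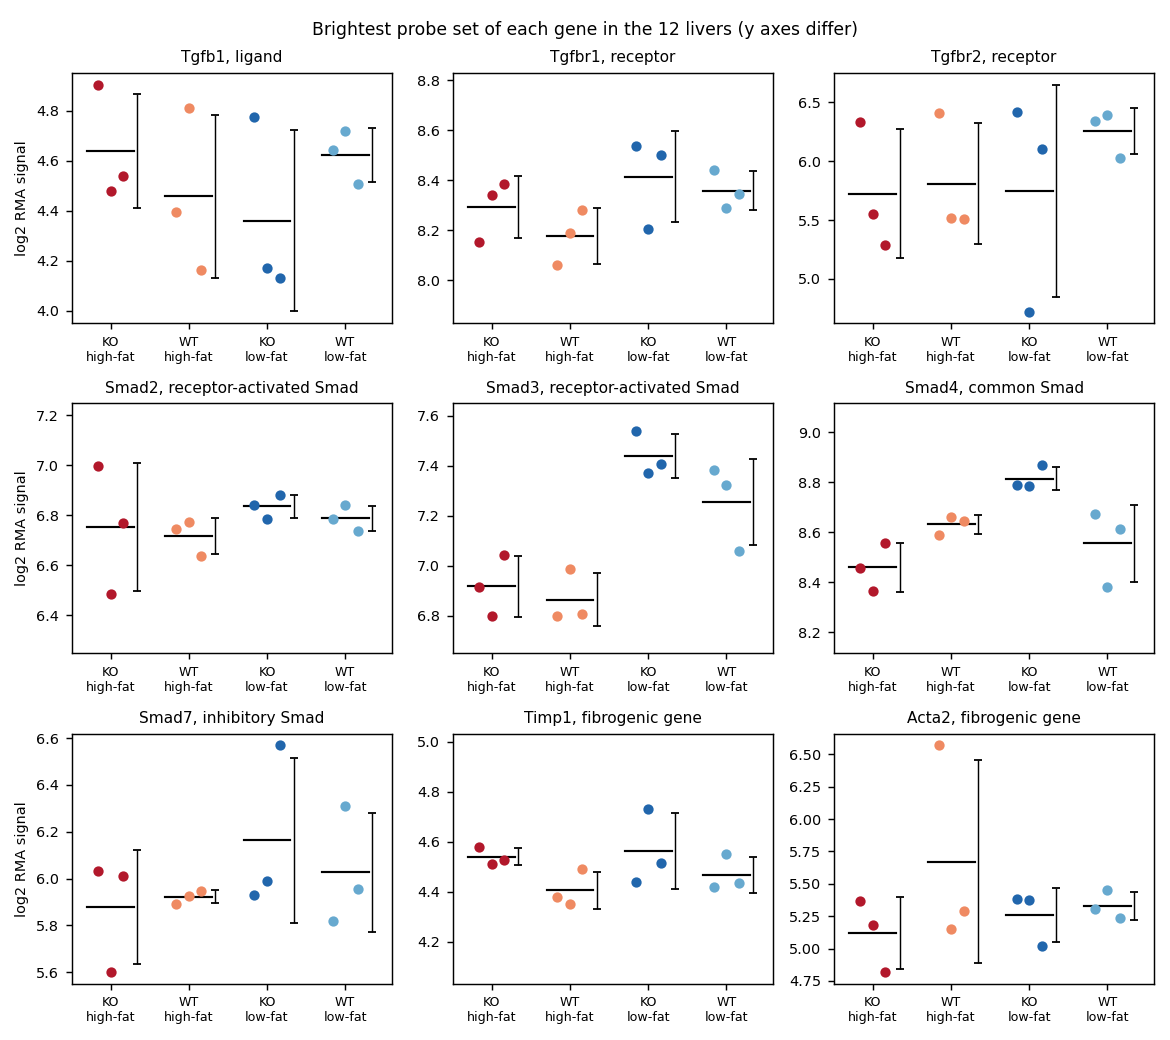
Log2 RMA signal of the brightest probe set of each of the 9 genes in the 12 livers, with the group mean as a line and the SD (n = 3) as a bar beside it; the y axes differ between panels. The Smad3 panel shows the 6 high-fat livers at 6.80 to 7.04 and the 6 low-fat livers at 7.06 to 7.54.

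Tgfb1, the ligand gene, was measured by 1 probe set (1420653_PM_at, gene at chr7:25687002-25705077). Its log2 signal was 4.90, 4.48 and 4.54 in KO high-fat livers and 4.40, 4.81 and 4.16 in WT high-fat livers. On the low-fat diet it was 4.78, 4.17 and 4.13 in KO livers and 4.64, 4.72 and 4.51 in WT livers. The groups overlapped in every pair, with 1 high liver in each group other than WT low-fat. KO minus WT was 0.18 on the high-fat diet (SE 0.194, adjusted p = 0.979, limma) and -0.26 on the low-fat diet (adjusted p = 0.808, limma). High-fat minus low-fat was 0.28 in KO livers (adjusted p = 0.649, limma) and -0.17 in WT livers (adjusted p = 0.897, limma). The difference between these diet effects was 0.45 (SE 0.275, adjusted p = 0.892, limma).

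Tgfbr1, the type I receptor gene at chr4:47353222-47414926, was read by 1 bright probe set (1420895_PM_at) and 2 dim ones. The bright one averaged 8.29 ± 0.124 in KO high-fat, 8.18 ± 0.111 in WT high-fat, 8.41 ± 0.181 in KO low-fat and 8.36 ± 0.076 in WT low-fat livers (SD, n = 3 each). In WT livers it read 8.06, 8.19 and 8.28 on the high-fat diet and 8.44, 8.29 and 8.34 on the low-fat diet. The WT diets did not overlap, but their difference of -0.18 (SE 0.110) did not pass (adjusted p = 0.775, limma). Averaged over genotypes, high-fat minus low-fat was -0.15 (SE 0.0778, adjusted p = 0.452, limma). The dim probe sets read 3.04 to 3.39 (1420893_PM_a_at) and 2.72 to 3.19 (1420894_PM_at) over the 12 arrays, and none of their differences passed.

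Tgfbr2, the type II receptor gene at chr9:116087695-116175363, had the widest spread between livers of 1 group. Its bright probe set (1426397_PM_at) read 6.34, 5.55 and 5.28 in KO high-fat livers and 6.41, 5.51 and 5.51 in WT high-fat livers. It read 6.42, 4.72 and 6.10 in KO low-fat livers and 6.34, 6.40 and 6.03 in WT low-fat livers. The lowest value was in KO low-fat replicate 2, the array with the lowest macrophage markers. KO minus WT on the low-fat diet was -0.51 (SE 0.378, adjusted p = 0.812, limma) with that array and 0.0053 without it. On the high-fat diet KO minus WT was -0.09. The other 2 probe sets were dim, at 3.29 to 3.66 (1425444_PM_a_at) and 2.64 to 2.91 (1422019_PM_at).

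Among the marker lists, Tgfbr2 went most closely with the endothelial one across the 12 arrays. With the mean of 12 endothelial markers, all above the dim limit, Pearson's r was 0.80 and Spearman's rho 0.85. With the macrophage list r was 0.69 and rho 0.43. With the 12 stellate cell markers, of which Des was dim, r was 0.61 and rho 0.66. The hepatocyte markers gave r = 0.53 and rho = 0.42. For adipocyte markers r was 0.50, for mesothelium 0.28 and for T and NK cells 0.05. It was -0.21 with smooth muscle, -0.26 with cholangiocytes, -0.46 with neutrophils and -0.56 with B cells. Each of these smaller lists held dim genes. The points share the arrays and their group structure, so these are descriptions. The endothelial markers averaged 5.65 to 6.38 in KO high-fat, 6.23 to 6.43 in WT high-fat, 5.81 to 6.68 in KO low-fat and 6.27 to 6.56 in WT low-fat livers. Their part in the Tgfbr2 spread was not tested.

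**Figure D2:**
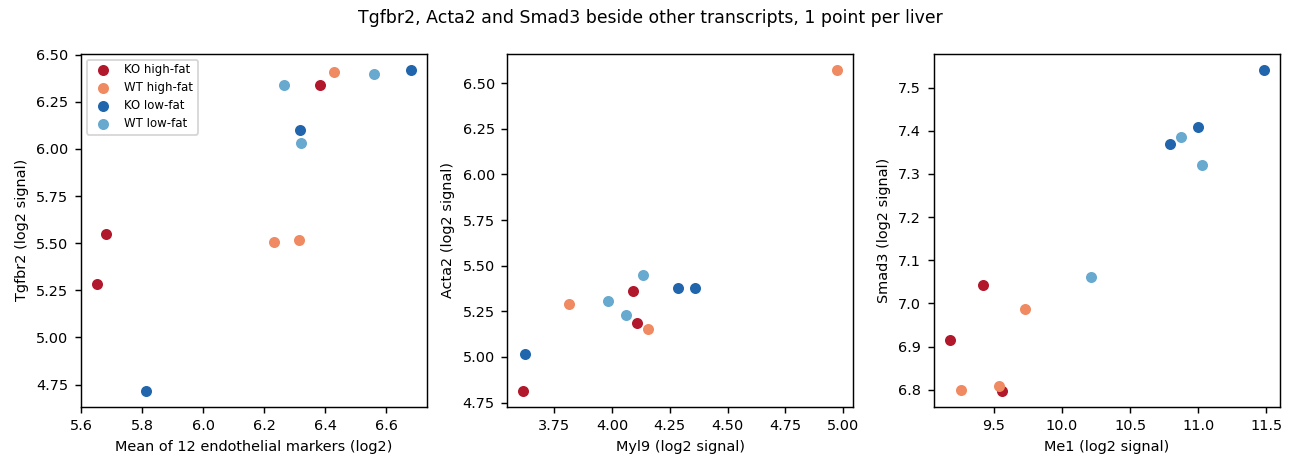
Each point is 1 of the 12 livers. The panels plot the log2 signal of Tgfbr2 against the mean log2 signal of the 12 endothelial markers, of Acta2 against Myl9, and of Smad3 against Me1; in the middle panel WT high-fat replicate 1 lies alone at the upper right, with Acta2 at 6.57 and Myl9 at 4.98.

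Smad2 and Smad3 encode the receptor-activated transducers, and only Smad3 had a difference that passed. Smad2, at chr18:76241090-76311748, was measured by 2 probe sets. The brighter one (1420634_PM_a_at) read 6.998, 6.49 and 6.77 in KO high-fat, 6.74, 6.77 and 6.64 in WT high-fat, 6.84, 6.79 and 6.88 in KO low-fat and 6.79, 6.84 and 6.74 in WT low-fat livers. Its high-fat minus low-fat difference in KO livers was -0.08, with a 95% interval of -0.350 to 0.181. The second probe set (1442062_PM_at) read 5.12 to 5.51 on the high-fat diet and 5.12 to 5.92 on the low-fat diet. None of the Smad2 differences passed.

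Smad3, at chr9:63646766-63757994, fell on the high-fat diet in its bright probe set (1454960_PM_at). The log2 signal was 6.91, 6.80 and 7.04 in KO high-fat livers and 6.80, 6.99 and 6.81 in WT high-fat livers. It was 7.54, 7.37 and 7.41 in KO low-fat livers and 7.38, 7.32 and 7.06 in WT low-fat livers. All 6 high-fat livers (6.80 to 7.04) lay under all 6 low-fat livers (7.06 to 7.54), and the closest pair was 7.04 in a KO high-fat liver and 7.06 in a WT low-fat liver. Averaged over genotypes, high-fat minus low-fat was -0.46 (SE 0.0829, 95% interval -0.633 to -0.278), which is 1.37-fold lower on the high-fat diet (adjusted p = 0.0130, limma). Among all probe sets 1.64% were separated in this way between the diets.

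Within each genotype the Smad3 difference did not pass. High-fat minus low-fat was -0.52 in KO livers (SE 0.117, adjusted p = 0.0571, limma) and -0.39 in WT livers (SE 0.117, adjusted p = 0.418, limma). The difference between these was -0.13 (SE 0.166, adjusted p = 0.946, limma). KO minus WT was 0.05 on the high-fat diet and 0.18 on the low-fat diet. The other Smad3 probe sets had smaller differences between diets, and none passed. The dimmer of them, 1450471_PM_at, read 3.41 to 3.62 on the high-fat diet and 3.35 to 4.02 on the low-fat diet, a difference of -0.09 averaged over genotypes. The probe set 1450472_PM_s_at, close to the dim limit, read 3.77 to 4.29 on the high-fat diet and 3.57 to 4.45 on the low-fat diet, a difference of -0.04. In KO livers the differences were -0.18 for 1450471_PM_at and -0.14 for 1450472_PM_s_at. In WT livers they were -0.01 and 0.06 in that order. The suffix s marks probes that can match several transcripts.

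Without the 2 arrays low in macrophage markers the Smad3 difference between diets was -0.50 (adjusted p = 0.0316, limma). Across the 12 arrays Smad3 had r = 0.50 with the mean of the hepatocyte markers, as a description. It had r = 0.30 with the endothelial and -0.26 with the macrophage markers. With smooth muscle r was -0.54, with T and NK cells -0.44, with B cells -0.35 and with neutrophils -0.20. It was -0.15 with stellate cells, 0.12 with cholangiocytes, 0.12 with mesothelium and 0.01 with adipocytes. The hepatocyte markers averaged 12.32 to 12.54 on the high-fat diet and 12.44 to 12.57 on the low-fat diet, ranges that overlap. Their part in the Smad3 difference was not tested.

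**Figure D3:**
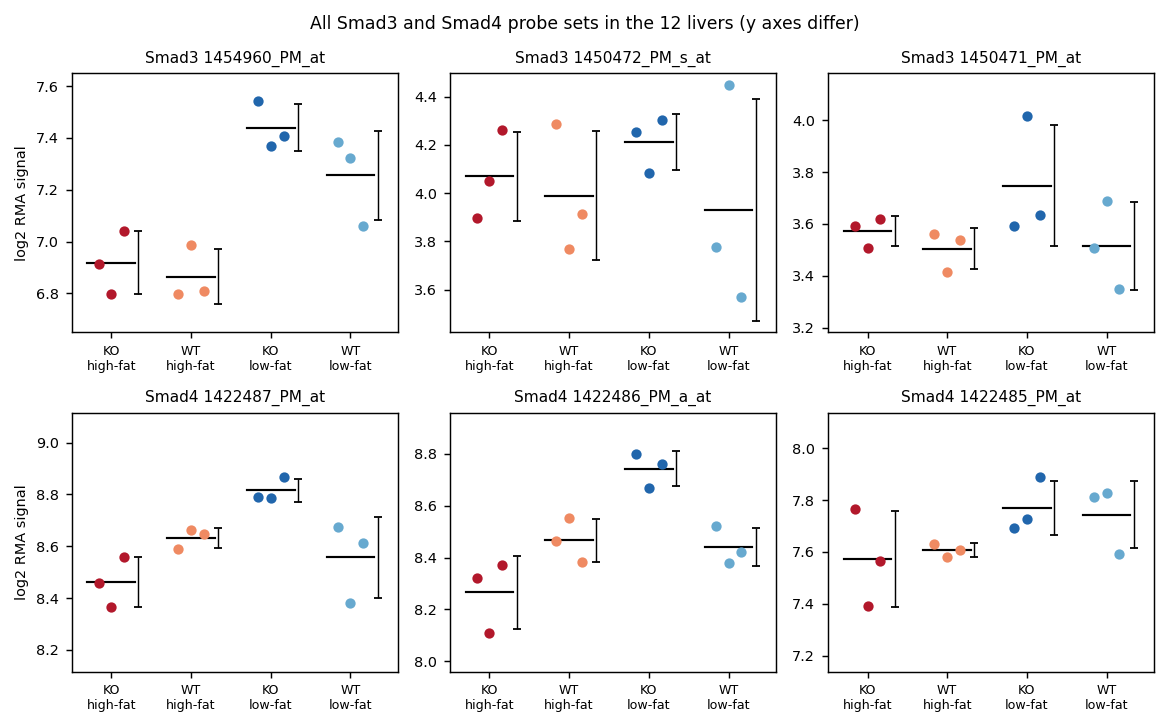
Log2 RMA signal of the 3 Smad3 and the 3 Smad4 probe sets in the 12 livers, with group means as lines and SD (n = 3) as bars; the y axes differ between panels. In Smad4 1422486_PM_a_at the KO livers lie under the WT livers on the high-fat diet and above them on the low-fat diet.

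Smad4, the common partner at chr18:73634790-73703791, fell on the high-fat diet in KO livers in 1 of its 3 probe sets. That probe set (1422486_PM_a_at) read 8.32, 8.11 and 8.37 in KO high-fat livers and 8.80, 8.67 and 8.76 in KO low-fat livers. The 2 KO groups did not overlap. The difference was -0.48 (SE 0.0952, 95% interval -0.682 to -0.274), 1.39-fold lower on the high-fat diet (adjusted p = 0.0320, limma). In WT livers it read 8.47, 8.55 and 8.38 on the high-fat diet and 8.52, 8.38 and 8.42 on the low-fat diet, and the difference was 0.03 (95% interval -0.178 to 0.230, adjusted p = 0.975, limma). The group means were 8.27 ± 0.140 in KO high-fat, 8.47 ± 0.083 in WT high-fat, 8.74 ± 0.069 in KO low-fat and 8.44 ± 0.073 in WT low-fat livers (SD, n = 3 each). KO livers thus held both the lowest and the highest mean, and the WT means in between lay within their spread of each other.

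The brightest Smad4 probe set (1422487_PM_at) had the same order at the ends and did not pass. It read 8.46, 8.37 and 8.56 in KO high-fat, 8.59, 8.66 and 8.65 in WT high-fat, 8.79, 8.79 and 8.87 in KO low-fat and 8.67, 8.38 and 8.61 in WT low-fat livers. High-fat minus low-fat was -0.35 in KO livers (SE 0.0943, adjusted p = 0.110, limma) and 0.08 in WT livers (adjusted p = 0.906, limma). The third probe set (1422485_PM_at) read 7.39 to 7.76 on the high-fat diet and 7.59 to 7.89 on the low-fat diet. Its diet difference was -0.20 in KO livers and -0.14 in WT livers, so it did not share the contrast between genotypes.

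In both brighter Smad4 probe sets every KO liver lay under every WT liver on the high-fat diet and above every WT liver on the low-fat diet. In 1422486_PM_a_at the gap on the high-fat diet was small, with a KO liver at 8.37 and a WT liver at 8.38. KO minus WT for 1422486_PM_a_at was -0.20 on the high-fat diet (adjusted p = 0.978, limma) and 0.30 on the low-fat diet (SE 0.0952, adjusted p = 0.564, limma). For 1422487_PM_at it was -0.17 (adjusted p = 0.978, limma) and 0.26 (adjusted p = 0.611, limma). The diet effect in KO livers minus that in WT livers was -0.50 for 1422486_PM_a_at (SE 0.135, 95% interval -0.793 to -0.216) and -0.43 for 1422487_PM_at (SE 0.133), and the adjusted p was 0.873 for both (limma). The unadjusted p values from limma were 0.00213 and 0.006, and no probe set on the array passed this contrast (0% of 28898). A difference of the Smad4 diet effects between genotypes is therefore not shown. The genotype difference on the low-fat diet and the diet difference in KO livers share the KO low-fat livers. The genotype difference on the high-fat diet and that diet difference share the KO high-fat livers. Neither genotype difference is therefore independent of the diet difference in KO livers.

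Limits bear on the Smad4 call. It passed in 5 of the 12 fits that each left out 1 array and was lost without KO high-fat replicate 1, 2 or 3, KO low-fat replicate 1, 2 or 3, or WT high-fat replicate 2. The differences over these fits ran from -0.53 to -0.40 (adjusted p = 0.0374 to 0.163, limma). Without the 2 arrays low in macrophage markers the difference was -0.57 (adjusted p = 0.0830, limma). Of the 12 endothelial markers, 0 passed between diets in KO livers, against 1% of all 17097 genes. Their median difference was -0.49. The difference was negative in 11 of 12, against 8779 of 17097 genes. An unadjusted p under 0.05 (limma) was found in 4 of 12, against 2214 of 17097 genes. Their mean level ranged over 5.65 to 6.38 in KO high-fat and 5.81 to 6.68 in KO low-fat livers, which overlap. Of the 10 hepatocyte markers, 1 passed between diets in KO livers, lower on the high-fat diet, and 4 of 10 had a negative difference. Across the arrays Smad4 1422486_PM_a_at had r = 0.42 with the endothelial and 0.41 with the hepatocyte markers, as a description. The part of either cell type in the Smad4 difference was not tested.

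Smad7, the inhibitory Smad at chr18:75367365-75395935, was measured by 1 probe set (1423389_PM_at). It averaged 5.88 ± 0.244 in KO high-fat, 5.92 ± 0.028 in WT high-fat, 6.16 ± 0.354 in KO low-fat and 6.03 ± 0.254 in WT low-fat livers (SD, n = 3 each). The groups overlapped, with the highest value of 6.57 in 1 KO low-fat liver. High-fat minus low-fat was -0.28 in KO livers (SE 0.181, adjusted p = 0.613, limma).

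**Figure D4:**
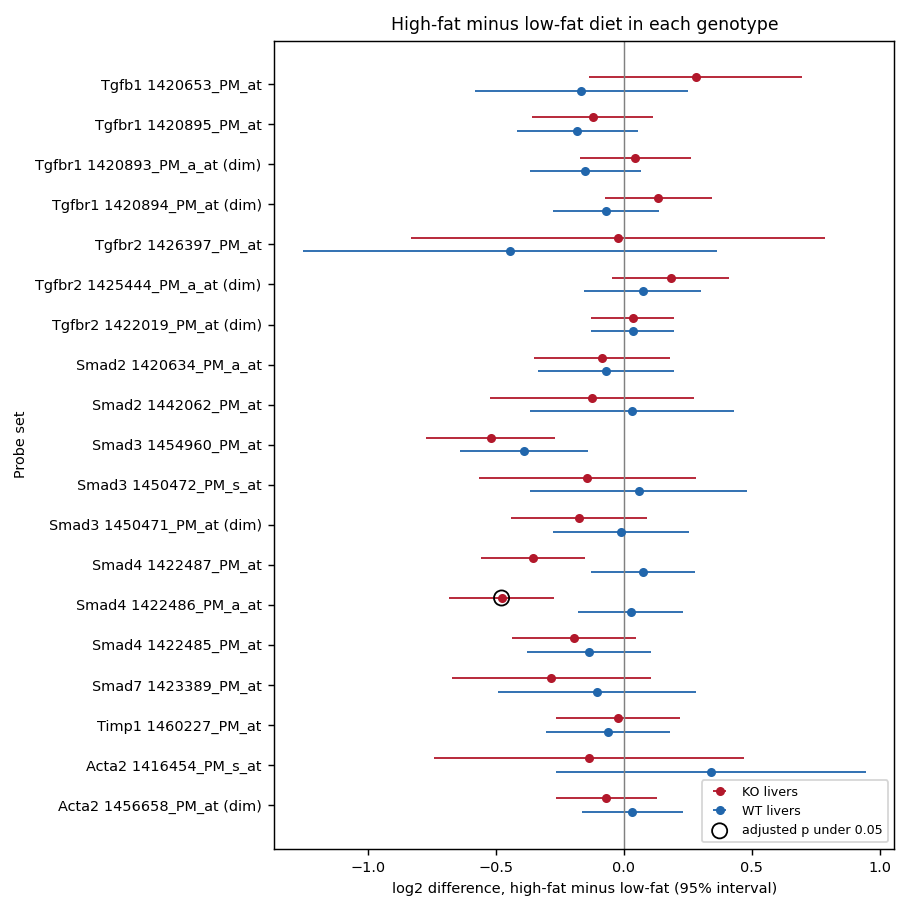
Log2 difference high-fat minus low-fat diet for each of the 19 member probe sets in KO and in WT livers, with 95% intervals from limma; a circle marks a difference past an adjusted p of 0.05. The 1 circle is on Smad4 1422486_PM_a_at in KO livers, at -0.48, and the Smad3 call averages both genotypes and so has no circle.

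Timp1, the metalloproteinase inhibitor gene at chrX:20870166-20874737, had a low and even signal (1460227_PM_at). It read 4.58, 4.51 and 4.53 in KO high-fat livers and 4.38, 4.35 and 4.49 in WT high-fat livers. It read 4.44, 4.73 and 4.52 in KO low-fat livers and 4.42, 4.55 and 4.43 in WT low-fat livers. On the high-fat diet the KO livers all lay above the WT livers, by 0.13 on average (SE 0.113, adjusted p = 0.978, limma). On the low-fat diet the genotypes overlapped, and averaged over diets KO minus WT was 0.11 (adjusted p = 0.848, limma).

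Acta2, at chr19:34240336-34255585, was read by a probe set with the s suffix (1416454_PM_s_at). It read 5.36, 5.18 and 4.82 in KO high-fat livers and 6.57, 5.15 and 5.29 in WT high-fat livers. It read 5.38, 5.38 and 5.02 in KO low-fat livers and 5.31, 5.45 and 5.23 in WT low-fat livers. WT high-fat replicate 1 stood more than 1 log2 unit above the other livers of its group. KO minus WT on the high-fat diet was -0.55 with that liver (SE 0.283, adjusted p = 0.978, limma) and -0.10 without it. In the same liver Myl9, a smooth muscle myosin light chain gene, read 4.98, against 3.61 to 4.36 in the other 11, and Mgp, the gene of matrix Gla protein, which smooth muscle secretes, read 5.45, against 4.16 to 4.62. The Aipl1 transcript was highest in that liver too, at 5.50. Myl9, Mgp and Aipl1 were picked by their likeness to Acta2 over these same arrays. Their high level in that liver is therefore part of the choice and no separate support. The smooth muscle list averaged 4.24 to 4.43 over the arrays, with 4 of its 6 measured genes (Cnn1, Actg2, Lmod1 and Myocd) under the dim limit. It was 4.43 in that liver. The stellate cell list averaged 5.85 to 6.45, with 6.42 in that liver. Across the arrays this Acta2 probe set had r = 0.57 and rho = 0.57 with stellate cells and r = 0.51 and rho = 0.08 with smooth muscle. With the endothelial list r was 0.40 and rho 0.65, as a description. The part of these cells in the Acta2 level was not tested. The second Acta2 probe set (1456658_PM_at) was dim, at 2.85 to 3.27.

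The groups of some member probe sets did not overlap between genotypes or diets, although few differences passed the test. On the high-fat diet 5 of 19 member probe sets had KO and WT livers that did not overlap (26.3%), against 11.1% of all probe sets, and on the low-fat diet 3 of 19 (15.8%), against 11.2%. Those on the high-fat diet were Timp1, both brighter Smad4 probe sets and the dim Tgfbr1 1420893_PM_a_at and Tgfbr2 1422019_PM_at. Those on the low-fat diet were both brighter Smad4 probe sets and the dim Tgfbr1 1420894_PM_at. Averaged over diets 0 of 19 were separated, against 0.239%. At an unadjusted p under 0.05 from limma, 0 of 19 differed on the high-fat diet, against 4.71% of all probe sets, and 2 of 19 on the low-fat diet, against 7.28%, both of them Smad4 probe sets. Between diets, the KO groups did not overlap in 5 of 19 probe sets (26.3%), against 15.9% of all, and the WT groups in 2 of 19 (10.5%), against 13.6% of all. In KO livers Smad3 1454960_PM_at and both brighter Smad4 probe sets were lower on the high-fat diet. The dim Tgfbr1 1420894_PM_at and Tgfbr2 1425444_PM_a_at were higher. Further, 14 of 19 probe sets were lower on the high-fat diet in KO livers, with a median of -0.12, against a median of -0.004 over all probe sets. All Smad3 and Smad4 probe sets were among these 14. In WT livers 11 of 19 were lower. Of all 17097 genes, read by the brightest probe set of each, 8779 were lower in KO livers and 8073 in WT livers. Probe sets of 1 gene are not independent of each other.

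**Figure D5:**
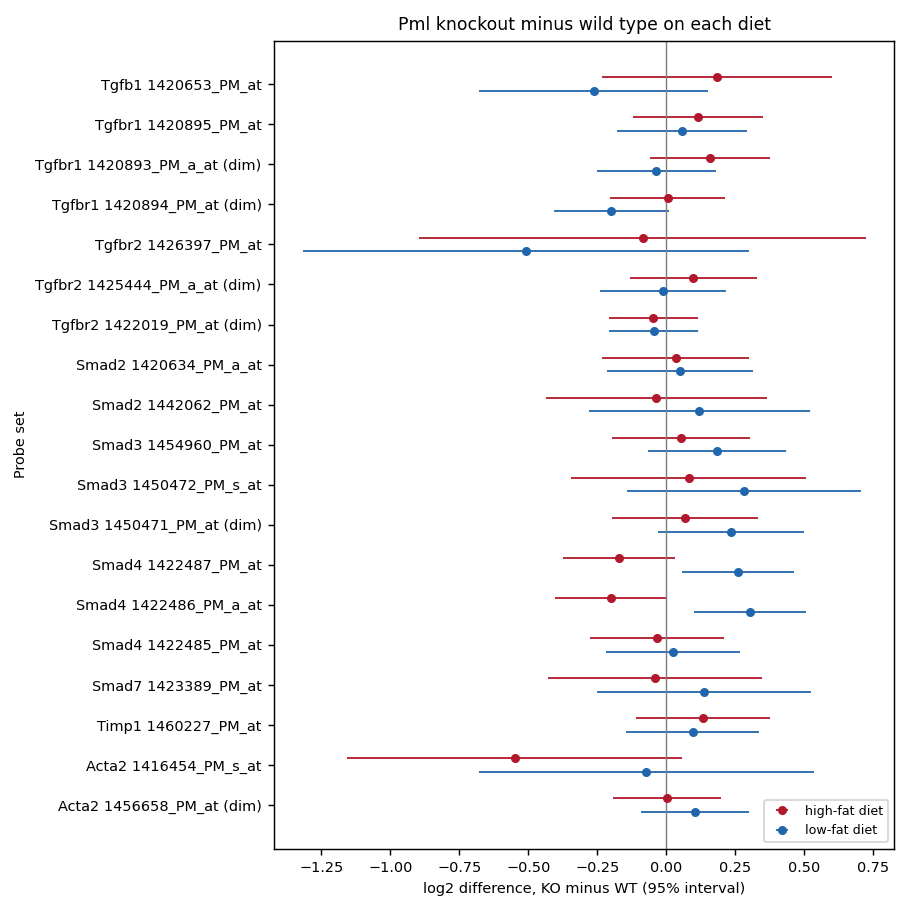
Log2 difference KO minus WT for each of the 19 member probe sets on the high-fat and on the low-fat diet, with 95% intervals from limma. No difference passed an adjusted p of 0.05, and both brighter Smad4 probe sets lie under 0 on the high-fat diet (-0.17 and -0.20) and above 0 on the low-fat diet (0.26 and 0.30).

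The other ligands, receptors, Smads and cofactors, inhibitors, induced targets and matrix genes of the pathway, 79 genes with a probe set (17 of them dim), were read by the brightest probe set of each gene. In 6 of the 7 contrasts 0 of 79 passed. Among all 17097 genes the share that passed was 0.00585% in each contrast of genotypes, 0.111% between diets in WT livers, 1% between diets in KO livers and 0% for the difference of the diet effects. Averaged over genotypes, 1 of 79 passed between the diets, against 1.97% of all genes. That gene was Mmp14, a membrane metalloproteinase that cleaves collagen, and it fell on the high-fat diet. Its log2 signal (1448383_PM_at) was 5.58, 5.58 and 5.32 in KO high-fat livers and 5.44, 5.33 and 5.41 in WT high-fat livers. It was 6.05, 5.93 and 5.69 in KO low-fat livers and 5.96, 5.80 and 6.01 in WT low-fat livers. The high-fat livers all lay under the low-fat livers, by 0.47 on average (SE 0.0905, 1.38-fold lower, adjusted p = 0.0191, limma). Without the 2 arrays low in macrophage markers the Mmp14 difference was -0.41 and no longer passed (adjusted p = 0.0941, limma). It was also lost without KO high-fat replicate 3, WT high-fat replicate 2, KO low-fat replicate 1 or WT low-fat replicate 1 (adjusted p = 0.0541, 0.0598, 0.0549 and 0.0574 in that order, limma).

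Furin, the gene of a protease that cleaves the TGF-beta precursor, came next. It averaged 8.68 ± 0.129 in KO high-fat and 9.16 ± 0.170 in KO low-fat livers (SD, n = 3 each), a difference of -0.48 (adjusted p = 0.0826, limma), and -0.31 averaged over genotypes (adjusted p = 0.102, limma). Among induced targets, Tgfbi, the gene of a secreted matrix protein, had a high-fat minus low-fat difference of 0.75 in KO livers (adjusted p = 0.289, limma), and Klf10, an early response gene, was -0.49 averaged over genotypes (adjusted p = 0.218, limma). Id1, a target of the BMP branch, averaged 5.79 ± 0.144 in KO high-fat and 5.02 ± 0.471 in WT high-fat livers (SD, n = 3 each), a difference of 0.77 (adjusted p = 0.978, limma). Among inhibitors, Bambi, a decoy receptor gene, was -0.37 on the high-fat diet in KO livers (adjusted p = 0.294, limma). For the collagen genes Col1a1 and Col3a1 KO minus WT on the high-fat diet was 0.31 and 0.43, and neither passed (adjusted p = 0.978 for Col1a1, limma).

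The transcripts whose levels ran most closely with each gene over the 12 arrays were ranked by Pearson's r among 10258 genes above the gene-level dim limit. For Smad3 these were Me1, the malic enzyme gene (r = 0.95), Prss8, a membrane serine protease gene (r = 0.95), and Fasn, the fatty acid synthase gene (r = 0.94). Their high-fat minus low-fat differences averaged over genotypes were -1.45 for Me1, -1.86 for Fasn and -0.72 for Prss8, genes chosen by likeness to Smad3 in the same arrays. For Tgfbr2 they were Tmem106a (0.93), F8, a coagulation factor gene (0.91), and Slc25a4 (0.89). For Acta2 they were Mgp (0.91), Myl9 (0.90) and Aipl1 (0.84). Each of these was highest in the same liver as Acta2, WT high-fat replicate 1. Their rank correlations were lower (rho = 0.57, 0.73 and 0.36 in that order). The brightest Smad4 probe set ran with Ern1 (0.92), Igsf23 (0.91) and Hipk2 (0.91), and Smad2 with Map3k2 (0.93), Pan3 (0.92) and Cep95 (0.90). Smad7 ran with Efnb1 (0.91), Zfp395 (0.90) and Rmnd5a (0.87), and Tgfbr1 with S100pbp (0.88), Dpcd (0.86) and Fbxo4 (0.86). The weakest neighbours were those of Tgfb1 (Clca3a2, 0.85, Baiap2, 0.84, and Igkj1, 0.84) and Timp1 (Vmn1r44, 0.88, Tmem115, 0.84, and Gpn2, 0.82). Between members, the 2 brighter Smad4 probe sets had r = 0.91, and Smad3 1454960_PM_at with Smad4 1422486_PM_a_at had r = 0.76. The highest of 10258 values is high by selection, so these are descriptions with no p.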

How the data were processed

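The authors deposited log2 signals for 45141 probe sets on 12 one-colour arrays, computed by RMA according to the submitters' processing notes; its software version was not among the details given. RMA commonly forces arrays onto one shared distribution and compresses changes of dim probe sets. Array medians lay between 3.94 and 4.00, and no scaling was added. Total liver RNA was extracted with Trizol and biotin-labelled per the labels' protocols.

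Control probe sets (104) and those with several genes (551) or none (15588) were left out. Contrasts came from limma 3.58.1 (R 4.3.3), with 4 group means and a variance trend (8 residual degrees of freedom), and p-values were adjusted by Benjamini-Hochberg over 28898 probe sets within each of 7 contrasts, with 0.05 as threshold. The script was tested on simulated data. SD is over 3 arrays, and SE and 95% intervals are limma's. For 3 against 3 arrays the smallest exact permutation p is 0.1, so none was run.

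The members and gene lists were chosen with earlier results of these data known. Every member probe set was described. Other genes were named where they passed, up to 2 per list and contrast by smallest p, and the 3 most similar transcripts of each member. Col3a1 was named after its values were seen. Of the pathway and matrix genes listed, 10 had no single-gene probe set. Alternatives were other normalizations, filters, variance models, single probe sets per gene, a replicate block, a threshold of 0.10 and the omission of each array; omitting together the 2 arrays lowest in macrophage markers and all settings for Mmp14 were chosen after seeing the data.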

Additional observations from a re-analysis of the deposited data

Results flagged for a closer look

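Smad4 drew attention because of its 2 brighter probe sets. In both, every KO liver lay under every WT liver on the high-fat diet and above every WT liver on the low-fat diet. In 1422486_PM_a_at the KO livers read 8.11 to 8.37 and the WT livers 8.38 to 8.55 on the high-fat diet, and the KO livers 8.67 to 8.80 and the WT livers 8.38 to 8.52 on the low-fat diet. The difference of the diet effects was -0.50 in 1422486_PM_a_at and -0.43 in 1422487_PM_at, and it was tested and did not pass (adjusted p = 0.873 for both, limma). The third probe set, 1422485_PM_at, gave -0.06 (adjusted p = 0.978, limma), and its genotypes overlapped on both diets.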

How the results depend on the processing

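The Smad3 fall on the high-fat diet, averaged over genotypes, passed in all 23 settings (adjusted p = 0.00738 to 0.0466, limma; differences of -0.50 to -0.42 with each array left out in turn). The number of member probe sets that passed between diets in KO livers, 1 (Smad4), did not hold. It was 2, Smad3 and Smad4, under quantile normalization, median centring, dim probe sets left out, robust variance, array weights and a threshold of 0.10. It was 0 with only the 2 groups compared and without the 2 arrays lowest in macrophage markers, and 0 to 2 with single arrays left out: 0 without KO high-fat replicate 1, 2 or 3, KO low-fat replicate 1, 2 or 3 or WT high-fat replicate 2, and 2 without WT low-fat replicate 3. With 1 probe set per gene the 1 call was Smad3 (adjusted p = 0.0292, limma), since the Smad4 probe set that passed is not its brightest. The counts for the other 6 contrasts were the same in every setting. The Smad4 call in KO livers passed in 14 of 23 settings; the cause was not tested. The Mmp14 fall, tried under these settings after seeing the data, passed in 18 of 23 (differences of -0.52 to -0.41, adjusted p = 0.00682 to 0.0941, limma). Of 133 member differences, 59 changed sign in some setting and none of these had an unadjusted p under 0.05 (limma, 10 did); the largest was Tgfbr2 on the low-fat diet, at -0.51. Extracts of the same number were not treated as paired, since the labels do not state a pairing. Their deviations correlated at -0.109 to 0.323, highest between KO high-fat and KO low-fat replicate 2. Of the 12 arrays, 7 correlated best with their own number. These values do not settle whether the extracts are paired. With the replicate number as a block, the Smad3 difference was -0.46 (adjusted p = 0.0240, limma) and the Smad4 difference -0.48 (adjusted p = 0.0461, limma). Low signals, as for Timp1 and Tgfb1, limit what can be seen of small changes.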
